A study of Mus musculus with 40 samples.

Results

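The effect of losing Malt1 was compared between Th17 and Th1 cells 72 h after induction, gene by gene, on 20 of the 40 arrays of the series. For each gene the difference between Malt1-/- and wild-type (WT) Th1 cells was subtracted from the difference between Malt1-/- and WT Th17 cells, a quantity called the interaction here. A negative interaction means that Malt1 loss moved the gene lower in Th17 cells than in Th1 cells, and a positive one that it moved the gene higher. The 4 groups were chosen by the titles of the samples and held 5 arrays each. They were Malt1-/- Th17, WT Th17, Malt1-/- Th1 and WT Th1 cells, all at 72 h. The interaction was tested for 10730 genes, and the same quantity on the 20 arrays of 48 h served for comparison.

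All cells came from mice of the C57BL6 background aged 8 to 12 weeks. They started as naive CD4+CD62L+ T cells, taken from lymph nodes and spleens. These were then induced to become Th17 or Th1 cells. The signals that drove the induction, and the part of Malt1 that the knockout removes, are not given in the sources used here. Messenger RNA was measured on Illumina bead arrays, and levels below are log2 normalised signals.

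T helper cells are named after the cytokines they make. Th17 cells make interleukin 17, Th1 cells make interferon gamma under T-bet, and Th2 cells make interleukins 4, 5 and 13 under GATA3. MALT1 is a scaffold and a protease. Downstream of the T cell receptor it joins CARMA1 and BCL10 to activate NF-kappaB transcription factors, and it cleaves RNA-binding proteins such as Regnase-1 and Roquin, which destabilise many cytokine transcripts.

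Malt1 was read by 2 kept probes, and the brighter one was low in both knockout groups. This probe (ILMN_1216818) read 7.77, 7.42, 7.70, 8.92 and 7.86 in Malt1-/- Th17 cells, against 12.69, 12.21, 12.77, 12.63 and 13.11 in WT Th17 cells. In Malt1-/- Th1 cells it read 5.92, 7.24, 5.96, 6.73 and 6.67, against 11.11, 11.27, 10.91, 11.36 and 12.46 in WT Th1 cells. The genotypes did not overlap in either lineage, and the knockouts were 26.9-fold and 30.2-fold lower in Th17 and in Th1 cells. The interaction of Malt1 was 0.17 ± 0.42 (SE of the fit, adjusted p = 0.94 by limma), so an unequal difference at this probe was not detectable. The second probe (ILMN_2419951) showed no such loss, with differences of -0.01 in Th17 cells and -0.17 in Th1 cells. Which part of the transcript either probe reads, and whether the knockout removes it, was not tested. The T cell genes Cd3e, Cd3g, Cd4 and Cd28 were detected on all 20 arrays, and Lck was not among the genes tested.

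The arrays of a group were not equally alike. Raw median signals ran from 127.1 to 193.3 and detected probes from 14870 to 17409 per array. Of the 20 arrays, 9 correlated better with another group than with their own: Malt1-/- Th17 replicates 2 and 5, WT Th17 replicates 2, 4 and 5, Malt1-/- Th1 replicate 2, and WT Th1 replicates 1, 4 and 5. Each of these was closest to a group of its own lineage at the other time or of the other genotype. Malt1-/- Th17 replicates 2 and 5 also had the highest summed signal of myeloid markers, as described below. The headers used here name no slide or scan date, so such a batch could not be examined. Nothing in the labels says that replicates came from separate animals, so p-values measure the spread between these arrays, which may be technical. The number of arrays limits the precision, and all n are 5 per group.

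The interaction was called for 75 genes, 0.699% of those tested, at a Benjamini-Hochberg adjusted p under 0.05 in limma. It was negative for 41 genes (0.382%) and positive for 34 (0.317%), and at least 2-fold for 58. Within single lineages, Malt1 loss changed 474 genes in Th17 cells (4.42%; 310 higher, 2.89%, and 164 lower, 1.53%) and 297 in Th1 cells (2.77%; 198 higher, 1.85%, and 99 lower, 0.923%). The 75 genes fell into a few patterns. For 33 of the 41 negative genes, the gene was called higher in Malt1-/- Th1 cells and was not called in Th17 cells. For the other 8, Adamtsl4, Fam217b, Furin, Hspbap1, Il17a, Lif, P2rx7 and Plekhf1, the gene was called lower in Malt1-/- Th17 cells alone. Of the 34 positive genes, 22 were called higher in Malt1-/- Th17 cells alone, 5 were called lower in Malt1-/- Th1 cells alone, and 7 were called in neither lineage by itself. In no gene of the 75 were both lineages called. The genotypes did not overlap in at least 1 lineage for 61 of the 75, where 6.35% of all genes tested had that, in Th17 cells for 29 (3.94% of all genes) and in Th1 cells for 34 (2.77%). The 75 were called on these same arrays, which favours separation, so this is a description and no support for the calls.

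Without the 9 arrays that stood apart and the 2 such arrays of 48 h, 465 genes were called, 59 of them among the 75. That larger count comes with groups from which arrays nearer to another group, of the other genotype or time, were removed, so it is no support for the calls. Without Malt1-/- Th17 replicates 2 and 5 alone, an alternative chosen after the data were seen, 40 genes were called, 37 of them among the 75, and the count for Th17 cells fell to 60. Leaving out Malt1-/- Th1 replicate 5 gave 44 genes. Under every alternative tried, 16 genes were called: Aif1l, Csf2, Edn1, Efna5, Fbxo15, Il4, Iqsec2, Kif3a, Kynu, Lum, Myh10, Osr2, Plekhf1, Scin, Tgfbi and Vcam1, with Lum not tested in 1 of them. Of the 75 genes, 26 had another kept probe, and of these 34 other probes 29 had the same sign and 4 were called.

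**Figure D1:**
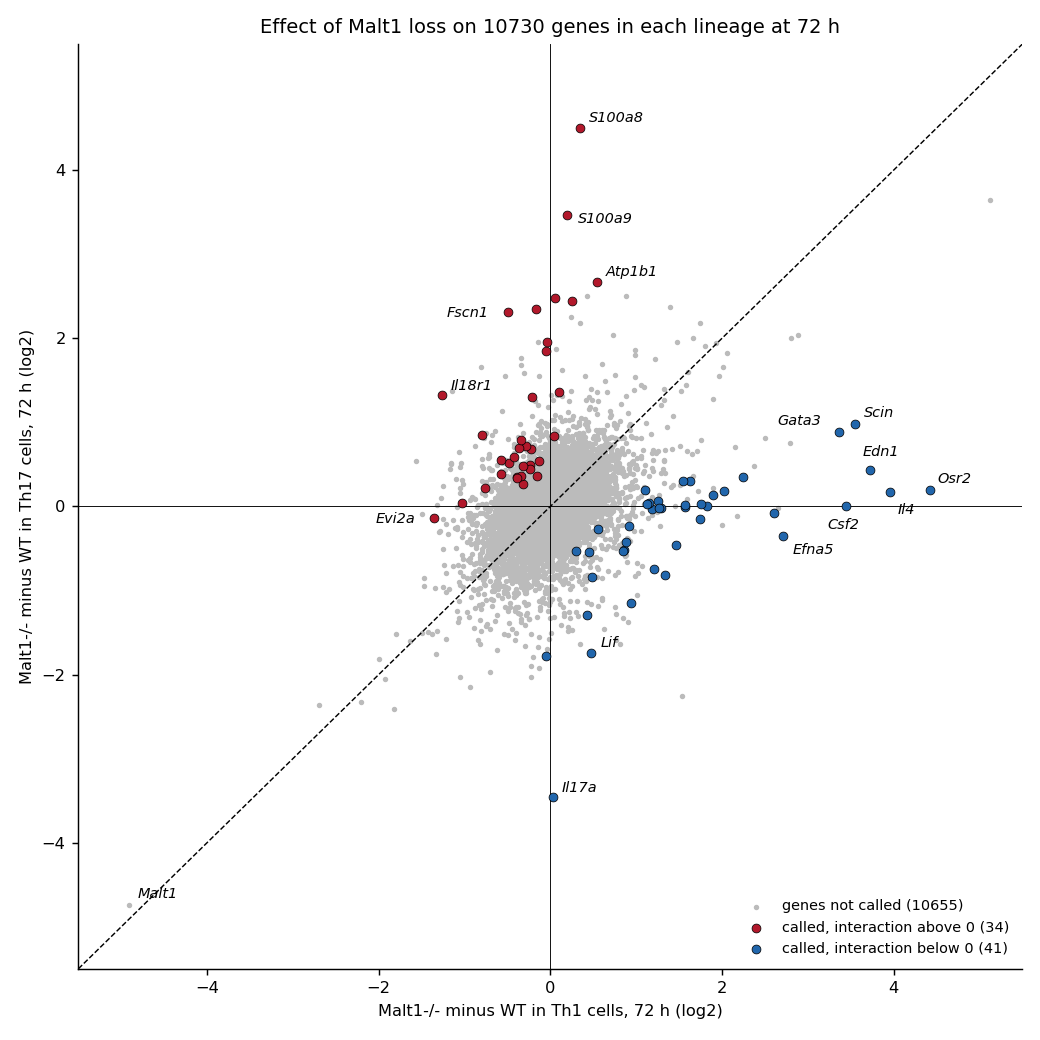
Log2 difference between Malt1-/- and WT cells at 72 h in Th17 cells (vertical axis) against that in Th1 cells (horizontal axis), 1 point per gene for 10730 genes; the dashed line marks equal effects. The 34 genes with a called positive interaction lie above the line and the 41 with a called negative one below it, most of them near 1 of the axes, while Malt1 lies near the line at the lower left.

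Genes of the Th2 programme were the clearest group on the negative side. Of 11 Th2 genes tested, Il4, Gata3 and Ecm1 had called negative interactions, none had a positive one, and 8 were not called. Their median interaction was -1.32, against 0.03 over all genes tested. It was -0.61 without background correction, -0.60 in the authors' value table and -0.45 without the detection filter, where 17 genes were tested. In Th1 cells 5 of the 11 were higher without Malt1 (Il4, Gata3, Il13, Ccr8 and Ecm1), and in Th17 cells none was higher and 2 were lower (Il10 and Il4ra). Over all genes, 1.85% were called higher in Th1 cells, and 2.89% higher and 1.53% lower in Th17 cells. No gene higher in Th17 cells is thus near the background. The list was composed with earlier results of these data known, so its direction is a description.

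Il4 encodes the cytokine that both marks and induces Th2 cells. Its levels (ILMN_2931334) were 6.40, 6.40, 6.44, 5.52 and 7.02 in Malt1-/- Th17 cells, against 5.95, 6.98, 6.18, 5.98 and 5.84 in WT Th17 cells. Malt1-/- Th1 cells measured 11.65, 10.54, 11.57, 12.47 and 12.41, against 9.21, 7.71, 7.58, 6.65 and 7.69 in WT Th1 cells. Every Malt1-/- Th1 array was above every other array at 72 h, whereas the Th17 groups overlapped. The rise in Th1 cells was 15.6-fold (log2 difference 3.96 ± 0.42), the Th17 difference was 0.17 ± 0.42, and the interaction was -3.79 ± 0.59 (adjusted p = 0.00048).

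Gata3 encodes the transcription factor that directs Th2 differentiation. It measured 7.95, 6.93, 7.11, 7.14 and 6.81 in Malt1-/- Th17 cells (ILMN_1248843), against 6.60, 5.58, 5.91, 7.31 and 6.12 in WT Th17 cells. The Th1 values were 11.14, 9.90, 10.93, 11.41 and 11.79 in Malt1-/- cells, against 7.59, 8.17, 8.00, 7.26 and 7.34 in WT cells. Only the Th1 groups were separate, with a 10.3-fold rise there (3.36 ± 0.36) and a difference of 0.89 ± 0.36 in Th17 cells (adjusted p = 0.14). The interaction was -2.48 ± 0.51 (adjusted p = 0.0084). Without Malt1-/- Th17 replicates 2 and 5 it was -2.26 and lost its call (adjusted p = 0.062).

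The other Th2 genes were less clear. Ecm1, a secreted matrix protein that helps Th2 cells leave lymph nodes in mice, had an interaction of -2.15 ± 0.52 (adjusted p = 0.035), from a Th17 difference of -0.81 ± 0.37 and a Th1 difference of 1.34 ± 0.37. Its values overlapped in both lineages, and the call was lost without any 1 of 10 arrays (adjusted p up to 0.095). Il13, the second Th2 effector cytokine, was 2.45-fold higher in Malt1-/- Th1 cells (1.29 ± 0.24) and level in Th17 cells (-0.01 ± 0.24), with an interaction of -1.30 ± 0.34 just outside the threshold (adjusted p = 0.055). Ccr8, a chemokine receptor of Th2 and regulatory T cells, was 5.65-fold higher in Malt1-/- Th1 cells, but its interaction of -1.68 ± 0.70 was not called (adjusted p = 0.34). Il24, a cytokine of the interleukin 10 family, had an interaction of -3.79 with an SE of 1.73 and was not called (adjusted p = 0.42). Il5 (-0.43), Ccr4 (-0.39) and Maf (0.04) were not called either.

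**Figure D2:**
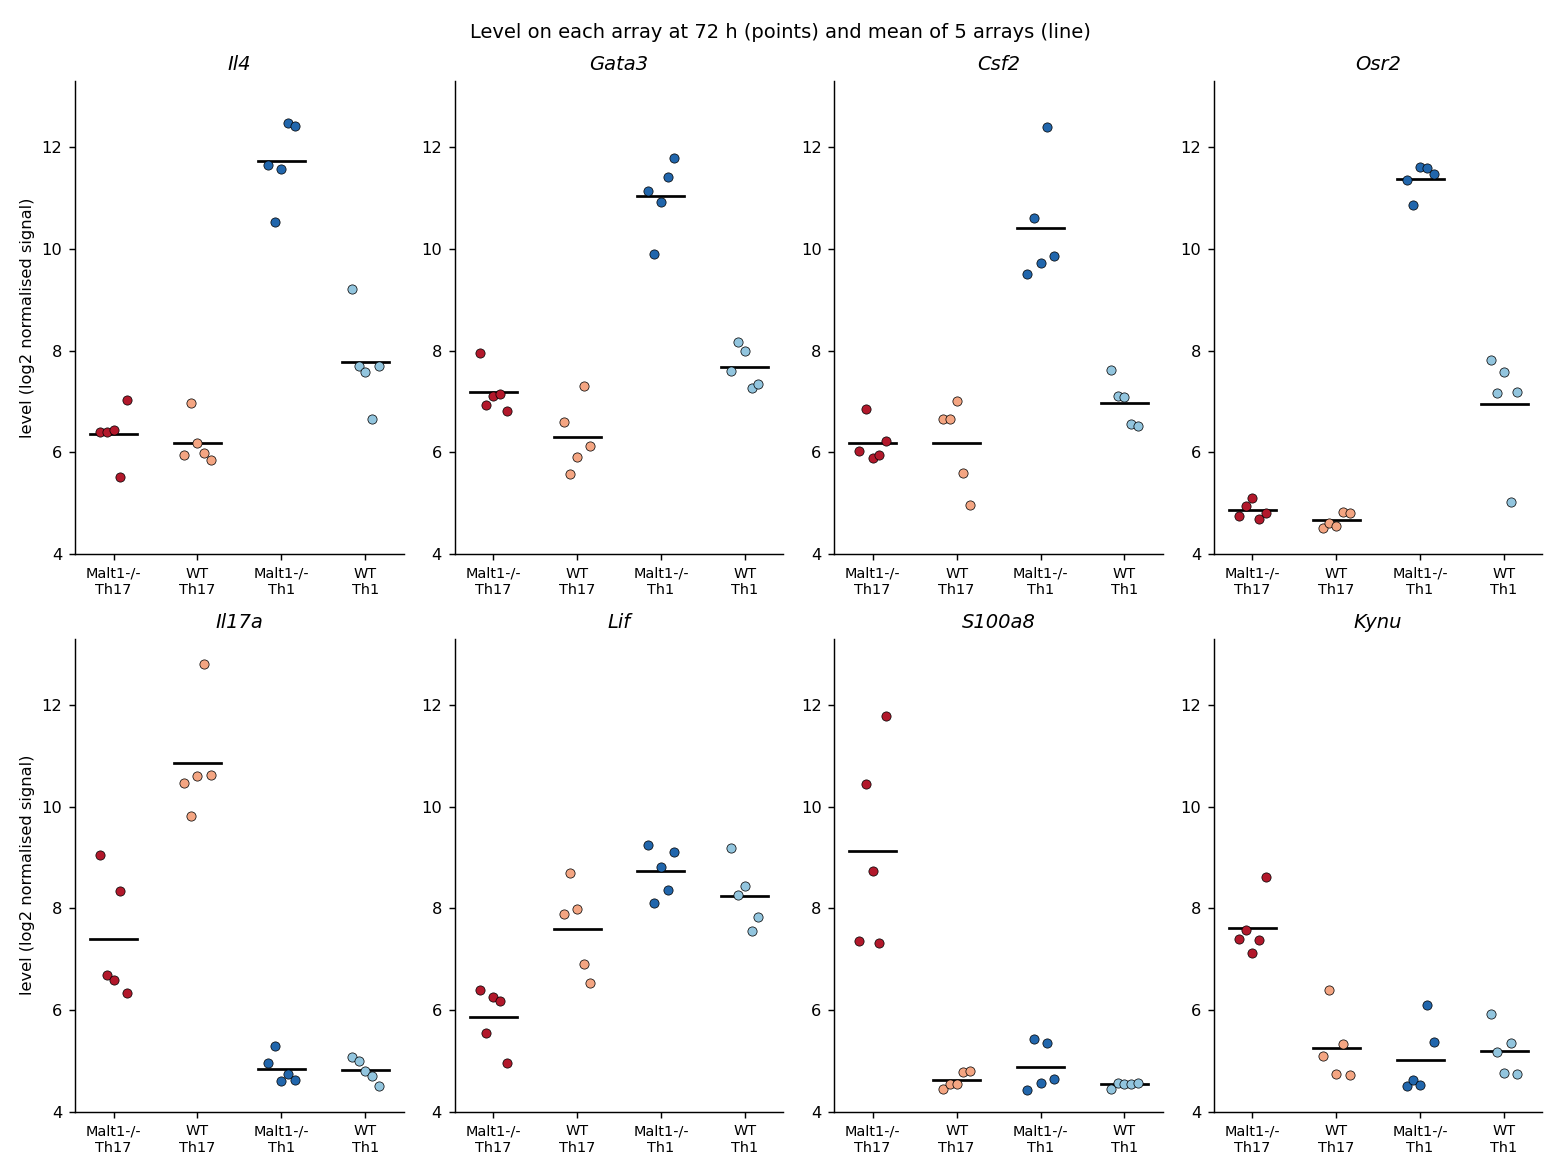
Level of 8 genes on each of the 20 arrays of 72 h (points, log2 normalised signal) with the mean of each group of 5 (line). Il4, Gata3, Csf2 and Osr2 stand high in Malt1-/- Th1 cells, Il17a and Lif are lower in Malt1-/- than in WT Th17 cells, and S100a8 and Kynu are high in Malt1-/- Th17 cells.

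The promoters of the called genes with the largest interactions in the Th2 and Th17 lists are given because these genes carry the contrast between the lineages. The stretches run from 250 bases before to 20 after the RefSeq start (build GRCm38.p6), 5′ to 3′ on the strand of the gene. They lie at chr11:53618646-53618915 (minus strand) for Il4, chr2:9878581-9878850 (minus) for Gata3 and chr1:20730655-20730924 (plus) for Il17a. Capitals mark matches, on either strand, to AGATAA or TGATAA, letters that GATA factors bind, or to GGGA, any 4 bases and then CC, a loose form of the NF-kappaB site.
Il4: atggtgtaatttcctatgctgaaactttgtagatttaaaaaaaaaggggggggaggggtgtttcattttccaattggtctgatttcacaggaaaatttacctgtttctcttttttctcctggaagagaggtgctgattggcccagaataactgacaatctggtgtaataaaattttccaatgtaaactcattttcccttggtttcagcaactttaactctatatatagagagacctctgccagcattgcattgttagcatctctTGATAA
Gata3: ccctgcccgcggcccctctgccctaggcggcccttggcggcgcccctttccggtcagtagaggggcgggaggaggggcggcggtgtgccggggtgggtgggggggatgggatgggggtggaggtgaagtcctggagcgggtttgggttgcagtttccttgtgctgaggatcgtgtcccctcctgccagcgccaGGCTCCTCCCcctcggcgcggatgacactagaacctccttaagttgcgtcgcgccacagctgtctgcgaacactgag
Il17a: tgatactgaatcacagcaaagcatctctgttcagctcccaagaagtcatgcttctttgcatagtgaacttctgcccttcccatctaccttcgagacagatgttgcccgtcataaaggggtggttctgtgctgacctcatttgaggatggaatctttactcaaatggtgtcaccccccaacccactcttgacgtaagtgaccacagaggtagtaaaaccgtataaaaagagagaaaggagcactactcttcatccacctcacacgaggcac
Il4 held 1 match to TGATAA, starting 15 bases after the start, and Gata3 held 1 match to the NF-kappaB letters on the opposite strand, starting at position -57. Neither Il17a, Ecm1 nor a second Il4 start held a match to either. Among 32851 RefSeq promoter windows of 300 bases, 18.6% held AGATAA or TGATAA and 20.7% held the NF-kappaB letters, so matches are common and say nothing of binding.

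The neighbours of Il4 on its chromosome were looked up after Kif3a was seen among the called genes. In RefSeq order, Kif3a lies next to Il4 on one side and Il13 on the other. Kif3a encodes a kinesin motor subunit. In Th1 cells Kif3a measured 8.62, 8.35, 7.88, 9.06 and 8.94 without Malt1, against 7.10, 6.96, 7.33, 6.56 and 7.60 in WT, with no overlap, while the Th17 groups overlapped. It was 2.76-fold higher in Malt1-/- Th1 cells (1.46 ± 0.26), and its interaction was -1.93 ± 0.36 (adjusted p = 0.0040). Its other kept probe gave -1.22 ± 0.30, and that value did not pass the threshold (adjusted p = 0.063). Septin8, on the far side of Kif3a, rose by 0.96 ± 0.28 in Th1 cells (adjusted p = 0.048), with an interaction of -0.43 that was not called. Rad50 (-0.31), Il5 (-0.43) and Irf1 (-0.47), on the far side of Il13, were not called.

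Csf2 encodes GM-CSF, a cytokine that both Th17 and Th1 cells can make. Its levels (ILMN_2749412) were 6.02, 6.86, 5.88, 5.95 and 6.22 in Malt1-/- Th17 cells, against 6.66, 6.65, 7.01, 5.60 and 4.96 in WT Th17 cells. Malt1-/- Th1 cells gave 9.51, 10.60, 9.71, 12.40 and 9.85, against 7.61, 7.11, 7.08, 6.55 and 6.53 in WT Th1 cells. Malt1-/- Th1 cells stood above all other arrays, with replicate 4 highest. The rise there was 10.9-fold (3.44 ± 0.50), the Th17 difference was 0.01 ± 0.50, and the interaction was -3.43 ± 0.70 (adjusted p = 0.0084).

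Osr2 was higher in Malt1-/- than in WT Th1 cells. It encodes a zinc finger transcription factor known from tooth and palate development. The probe ILMN_2770979 was not detected on any Th17 array. In Malt1-/- Th1 cells it read 11.35, 10.86, 11.62, 11.59 and 11.48, against 7.81, 7.16, 7.58, 5.02 and 7.18 in WT Th1 cells. The Malt1-/- values lay close together and all WT values were lower, replicate 4 by most. Osr2 was 21.5-fold higher in Malt1-/- Th1 cells (4.43 ± 0.38), and the interaction was -4.23 ± 0.54 (adjusted p = 3.2e-05). A second probe of Osr2 gave -3.99 ± 0.43.

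Edn1, which encodes the peptide endothelin 1, followed the same pattern. It read 7.97, 9.37, 7.86, 10.97 and 8.43 in Malt1-/- Th1 cells, against 4.66, 4.71, 4.81, 6.57 and 5.23 in WT Th1 cells, where 1 of 5 arrays detected it. The Th1 groups did not overlap, and the rise was 13.2-fold (3.73 ± 0.38). Th17 levels were near background, with detection on 2 of 5 Malt1-/- arrays and 0 of 5 WT arrays, and the interaction was -3.30 ± 0.54 (adjusted p = 0.00072).

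Other genes called in Malt1-/- Th1 cells alone had varied roles, and no theme was tested over them. Efna5, an ephrin ligand, was 6.55-fold higher there, at 8.32, 6.30, 7.89, 7.85 and 8.54 against 5.33, 5.48, 4.82, 5.01 and 4.71 in WT Th1 cells (interaction -3.06 ± 0.45, adjusted p = 0.00016). Scin, the actin-severing protein scinderin, was 11.7-fold higher, at 10.29, 9.66, 10.05, 10.33 and 10.27 against 7.56, 6.78, 6.54, 6.13 and 5.85 in WT Th1 cells (interaction -2.57 ± 0.47, adjusted p = 0.0027). None of the Malt1-/- Th1 values of Efna5 or Scin overlapped the WT ones. In Th17 cells Scin barely separated, with a lowest Malt1-/- value of 4.776 and a highest WT value of 4.772. Both lie below the lowest signal detected on the arrays of their groups. The difference of Scin in Th17 cells, 0.97 ± 0.33, was not called (adjusted p = 0.077). Gsn, gelsolin, an actin-severing protein of the same family as scinderin, was 3.38-fold higher, with 1 of 5 WT Th1 arrays detecting it (interaction -1.73 ± 0.32). Iqsec2, an exchange factor for ARF GTPases, was 6.1-fold higher with an interaction of -2.69 ± 0.38. Myh10, a non-muscle myosin heavy chain, rose by 1.57 ± 0.21 in Th1 cells and was not detected on any Th17 array. Another kept probe of Myh10 differed by 0.38 in Th1 cells, with an interaction of -0.58 ± 0.31 that was not called (adjusted p = 0.61). Lum, the matrix proteoglycan lumican, rose by 1.57 ± 0.21 in Th1 cells, where 1 of 5 WT arrays detected it, and was detected on no Th17 array.

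Jak2, a kinase of cytokine receptors including those for interleukin 12, was the called member of the list of STAT factors and SOCS feedback genes (1 of 18 tested, negative). It measured 11.32, 10.96, 10.78, 10.58 and 10.64 in Malt1-/- Th17 cells, against 11.54, 10.67, 11.39, 10.96 and 10.90 in WT Th17 cells. In Th1 cells it measured 12.14, 12.66, 12.23, 12.75 and 12.43 without Malt1, against 11.47, 11.32, 11.46, 11.86 and 11.49 in WT. Only the Th1 groups were separate. Its interaction was -1.16 ± 0.26 (adjusted p = 0.018), from a 1.89-fold rise in Th1 cells, and the call was lost without Malt1-/- Th17 replicates 2 and 5 (adjusted p = 0.075; up to 0.28 over the alternatives). Stra6, a receptor for retinol-binding protein, rose 4.06-fold in Malt1-/- Th1 cells (interaction -1.83 ± 0.40). Fbxo15, an F-box protein, was detected on 5 of 5 Malt1-/- and 0 of 5 WT Th1 arrays and was at least 3.54-fold higher there (interaction -1.89 ± 0.35). Here and below, "at least" sets the mean against the detection floor of the arrays without signal.

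Il17a, the defining Th17 cytokine, had a negative interaction that came from Th17 cells. Its levels (ILMN_1220595) were 9.05, 6.68, 6.60, 8.34 and 6.34 in Malt1-/- Th17 cells, against 10.46, 9.81, 10.60, 12.81 and 10.63 in WT Th17 cells. Th1 values ran from 4.60 to 5.30 in Malt1-/- cells, with 1 of 5 arrays detected, against 4.50 to 5.07 in WT cells, with 0 of 5 detected. The Th17 groups did not overlap, and Malt1-/- cells were 11.01-fold lower there (-3.46 ± 0.49). The interaction was -3.49 ± 0.70 (adjusted p = 0.0070). It kept its call without any single array, but not without the arrays that stood apart (-2.37, adjusted p = 0.17) or without Malt1-/- Th17 replicates 2 and 5 (-2.90, adjusted p = 0.072). Since Il17a lay near background in Th1 cells, a fall could not be measured in that lineage.

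Il17f, the sister cytokine encoded beside Il17a, differed in size. It read 12.75, 12.20, 12.79, 12.66 and 11.57 in Malt1-/- Th17 cells, against 14.12, 14.16, 13.76, 14.19 and 14.13 in WT Th17 cells, and was not detected on any Th1 array. The Th17 groups did not overlap, and the fall there was 3.19-fold (-1.67 ± 0.49, adjusted p = 0.044). The interaction of -1.53 ± 0.69 was not called (adjusted p = 0.41), but with the 72 h arrays alone in the fit it was (adjusted p = 0.014). Il21, a cytokine of Th17 and follicular helper cells, instead differed in Th1 cells, where it was 3.01-fold higher without Malt1 (1.59 ± 0.42), with 0.09 ± 0.42 in Th17 cells and an interaction of -1.50 ± 0.60 that was not called (adjusted p = 0.32). Of the 20 genes tested in the Th17 list, Il17a alone had a called interaction in the fit of all arrays, and the median was -0.39. Among them 3 were lower in Malt1-/- Th17 cells (Il17a, Il17f and Nfkbiz). In Malt1-/- Th1 cells 2 were higher (Il21 and Tgfbr3) and 1 was lower (Nfkbiz). Over all genes, 0.699% had a called interaction and 1.53% were called lower in Th17 cells. In Th1 cells 1.85% of all genes were called higher and 0.923% lower. The 1 gene lower in Th1 cells is thus near the background, and the other small counts are a description.

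Lif encodes a cytokine of the interleukin 6 family. It measured 6.39, 5.54, 6.27, 6.17 and 4.96 in Malt1-/- Th17 cells (ILMN_3137287), against 7.89, 8.70, 7.98, 6.91 and 6.52 in WT Th17 cells. The Th1 values were 9.25, 8.10, 8.81, 8.36 and 9.12 in Malt1-/- cells, against 9.19, 8.25, 8.43, 7.55 and 7.83 in WT cells. The Th17 groups were separate and the Th1 groups overlapped. Lif fell 3.34-fold in Malt1-/- Th17 cells (-1.74 ± 0.35), differed by 0.48 ± 0.35 in Th1 cells, and had an interaction of -2.22 ± 0.50 (adjusted p = 0.019). The call was lost without Malt1-/- Th17 replicate 5 or Malt1-/- Th1 replicate 5 (adjusted p up to 0.059), and also with the 72 h arrays alone (0.13) and without Malt1-/- Th17 replicates 2 and 5 (0.17). Other probes of Lif gave -2.15 ± 0.54 and -0.33 ± 0.32, neither of them called.

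Among 23 secreted helper cytokines tested, Il4, Il17a, Csf2 and Lif had called negative interactions and none had a positive one. Their median interaction was -0.59, and -0.99, -0.92 and -1.07 without WT Th17 replicate 4, WT Th17 replicate 5 and WT Th1 replicate 1. In Th17 cells 6 fell without Malt1 and none rose, and in Th1 cells 4 rose (Il4, Il13, Il21 and Csf2) and 1 fell (Tnf). Over all genes, 0.382% had a called negative interaction. In Th17 cells 1.53% of all genes were called lower and 2.89% higher, and in Th1 cells 1.85% higher and 0.923% lower. The absence of a rise in Th17 cells is thus near the background. Il4, Il13, Il17a and Il21 were also counted in the Th2 or Th17 list, so these counts are not separate from those above. Il10, which restrains inflammation, differed by -2.41 ± 0.61 in Th17 cells and by -1.82 ± 0.61 in Th1 cells, with the first called and an interaction of -0.59 ± 0.87 (adjusted p = 0.88). Il2, the T cell growth factor, had an interaction of -1.56 ± 1.12 (adjusted p = 0.69), with values that spread widely within groups, and Il22 was not among the genes tested.

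Smaller falls in Malt1-/- Th17 cells included an activating protease and a membrane channel. Furin, a protease that activates precursors such as that of TGF-beta, measured 12.71, 12.64, 12.43, 12.53 and 12.52 in Malt1-/- Th17 cells, against 13.20, 13.41, 12.86, 12.88 and 13.13 in WT Th17 cells. The genotypes did not overlap. It fell by 0.53 ± 0.14 there and had an interaction of -0.83 ± 0.20 (adjusted p = 0.031), and it lost its call without any 1 of 9 arrays. P2rx7, a channel gated by extracellular ATP, was not detected on any Malt1-/- Th17 array and was at least 1.34-fold lower there than in WT Th17 cells (interaction -1.33 ± 0.34, adjusted p = 0.049). It was called without 5 of the 20 single arrays. Other kept probes of P2rx7 gave interactions of -0.27 ± 0.31 and -0.30 ± 0.26, neither of them called (adjusted p = 0.87 and 0.81). Plekhf1, an endosomal adaptor, fell by 1.30 ± 0.20 in Malt1-/- Th17 cells and this probe kept its call throughout (interaction -1.73 ± 0.29, adjusted p = 0.00087). Its median was 5.07 in Malt1-/- Th17 cells, and its WT Th1 values reached 5.13 at most. Both are near background, so the sizes of the fall and of the interaction are uncertain. The other kept probe of Plekhf1 gave -0.62 ± 0.28 and was not called (adjusted p = 0.50).

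**Figure D3:**
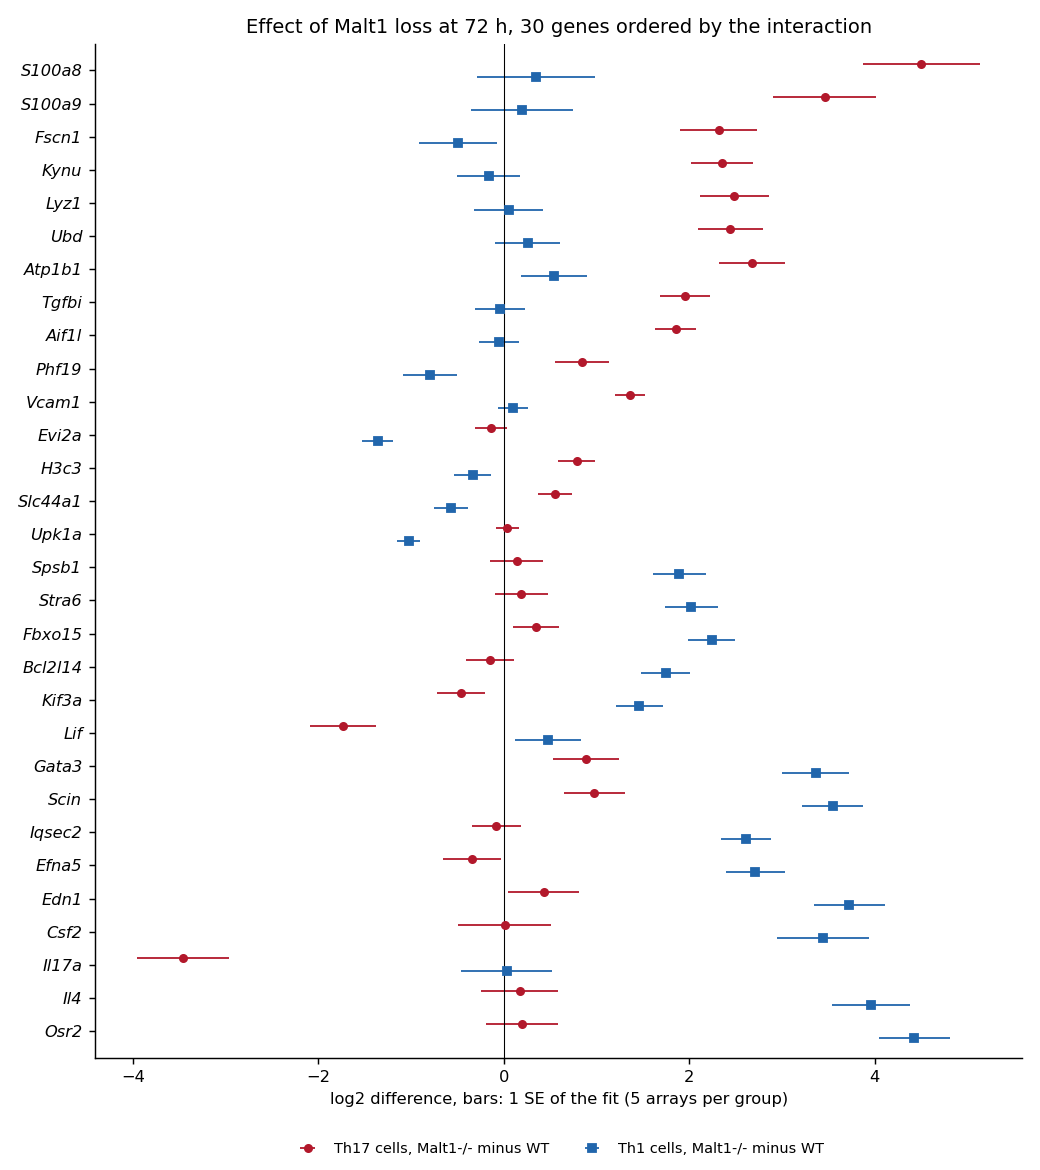
Log2 difference between Malt1-/- and WT cells at 72 h in Th17 cells (red circles) and Th1 cells (blue squares) for the 15 largest positive and 15 largest negative called interactions among genes whose genotypes did not overlap in at least 1 lineage; bars are 1 SE. Most genes move in 1 lineage only: S100a8 reaches 4.50 in Th17 cells and Osr2 4.43 in Th1 cells.

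S100a8 and S100a9, which encode the subunits of calprotectin, abundant in neutrophils and monocytes, had positive interactions. Their fitted interactions rest on groups below background and are not ranked by size. S100a8 (ILMN_2710905) read 7.37, 10.44, 8.73, 7.32 and 11.77 in Malt1-/- Th17 cells. WT Th17 cells read 4.45, 4.54, 4.55, 4.78 and 4.80 and did not detect it on any array. Th1 values ran from 4.43 to 5.43 in Malt1-/- cells, against 4.44 to 4.57 in WT cells. Every Malt1-/- Th17 array exceeded every other array, but those 5 differed widely among themselves, with replicates 5 and 2 highest. S100a8 was at least 14.8-fold higher in Malt1-/- Th17 cells, and its interaction was 4.15 ± 0.90 (adjusted p = 0.014). S100a9 read 6.29, 9.10, 7.50, 5.99 and 10.77 in Malt1-/- Th17 cells and was not detected in the other 3 groups. It was at least 6.44-fold higher (interaction 3.26 ± 0.78, adjusted p = 0.031). Those 5 arrays alone suffice for the detection filter, which favours such a difference, so the S100a9 call is a description. Lyz1, a lysozyme of myeloid cells, read 6.57, 9.04, 7.75, 6.26 and 8.80 in Malt1-/- Th17 cells, against 4.90, 4.76, 4.89, 5.74 and 5.71 in WT Th17 cells, where 2 of 5 arrays detected it, and had an interaction of 2.43 ± 0.53 (adjusted p = 0.014).

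These 3 genes are on the list of myeloid markers, of which 8 of 14 were tested and 3 had called interactions, all positive. Fcer1g, another of the 8, was called higher in Malt1-/- Th17 cells (1.32, adjusted p = 0.048) without a called interaction. Lyz2 (0.66), Csf1r (-0.10), Tyrobp (-0.35) and Elane (0.02) were not called in Th17 cells, and Csf1r and Tyrobp were not detected on any Malt1-/- Th17 array. The markers Itgam, Cd14, Mpo, Adgre1, Ngp and Camp did not pass the detection filter. The summed signal of the 8 ran from 593.8 to 6217 in Malt1-/- Th17 cells, against 247.3 to 411.3 in WT Th17 cells. In Th1 cells it ran from 254.4 to 328.9 without Malt1, against 238.8 to 333.2 in WT. The highest sums were 6217 in Malt1-/- Th17 replicate 5 and 3547 in replicate 2. Without these 2 arrays S100a8 had an interaction of 2.84 and lost its call (adjusted p = 0.13), and S100a9 and Lyz1 lost theirs as well. The part of other cells in these results was not tested, and in bulk RNA fewer cells of a type and less RNA per cell cannot be told apart. The lists of B cell, mast cell and basophil, NK cell, CD8 T cell, dendritic cell, and erythroid and platelet markers held no called interaction. In that order, 7, 3, 4, 3, 5 and 1 of their genes were tested. With 0.699% of all genes called, a count of 0 is near the background and is no result about those cells. Within Th17 cells, 1 of the 3 CD8 T cell markers was called lower without Malt1 and 1 of the 4 NK cell markers higher. Over all genes these shares were 1.53% and 2.89%. No other gene of these lists was called in a single lineage. The summed CD8 T cell signal ran from 1830 to 2047 in Malt1-/- Th17 cells, against 2484 to 4221 in WT Th17 cells. Sums of the other lists named here overlapped between these 2 groups.

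Kynu, kynureninase of the tryptophan breakdown pathway, kept its call without those arrays. It measured 7.39, 7.57, 7.12, 7.37 and 8.61 in Malt1-/- Th17 cells (ILMN_1214750), against 5.09, 6.40, 4.75, 5.32 and 4.73 in WT Th17 cells. Th1 values ran from 4.51 to 6.09 without Malt1, against 4.73 to 5.92 in WT. The Th17 groups were separate and the Th1 groups overlapped. The rise was 5.11-fold in Th17 cells (2.35 ± 0.34), and the interaction was 2.52 ± 0.48 (adjusted p = 0.0041) with all arrays and 2.20 (adjusted p = 0.032) without Malt1-/- Th17 replicates 2 and 5.

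Aif1l, a relative of the actin-bundling protein AIF1, and Vcam1, an adhesion molecule that binds integrins, were called at both 72 h and 48 h. Aif1l read 7.03, 6.89, 6.40, 6.61 and 6.53 in Malt1-/- Th17 cells, against 5.18, 4.74, 4.71, 4.67 and 4.89 in WT Th17 cells, where no array detected it. It was at least 2.73-fold higher, with an interaction of 1.90 ± 0.31 (adjusted p = 0.00070). Vcam1 read 6.13, 6.002, 6.03, 5.52 and 6.30 in Malt1-/- Th17 cells, against 4.57, 4.56, 4.76, 4.69 and 4.59 in WT Th17 cells. At 72 h detection of Vcam1 was restricted to the Malt1-/- Th17 group, where it was at least 1.69-fold higher (interaction 1.26 ± 0.23, adjusted p = 0.0026). Those 5 arrays alone suffice for the detection filter, which favours such a difference, so the separation at 72 h is a description. Vcam1 was called without the filter as well. At 48 h the interactions of Aif1l and Vcam1 were 1.52 and 1.36.

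Several other genes rose in Malt1-/- Th17 cells alone. Tgfbi, a matrix protein induced by TGF-beta, was 3.88-fold higher there, at 6.39, 7.30, 6.39, 6.52 and 7.48 against 4.63, 5.00, 4.41, 5.22 and 5.04 in WT Th17 cells, where 1 of 5 arrays detected it (interaction 1.99 ± 0.38, adjusted p = 0.0042). Fscn1, the actin-bundling protein fascin, was 4.98-fold higher, at 8.42, 7.15, 7.19, 6.47 and 7.62 against 5.89, 4.54, 4.88, 5.19 and 4.77 in WT Th17 cells, where 2 of 5 arrays detected it (interaction 2.81 ± 0.59, adjusted p = 0.011). Atp1b1, a subunit of the sodium pump, was 6.38-fold higher, at 9.60, 10.37, 9.93, 9.61 and 10.33 against 6.81, 6.74, 6.08, 7.79 and 9.04 in WT Th17 cells (interaction 2.14 ± 0.50, adjusted p = 0.028). In Tgfbi, Fscn1 and Atp1b1 alike the Malt1-/- Th17 arrays all lay above the WT ones. Tgfbi kept its call in every alternative, whereas Atp1b1 lost it without any 1 of 9 arrays.

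Ubd, the ubiquitin-like protein FAT10 induced by interferon gamma and TNF, was the called member among 21 interferon-stimulated genes tested. It was 5.44-fold higher in Malt1-/- Th17 cells, at 8.61, 7.98, 8.20, 8.23 and 7.79 against 5.89, 6.65, 4.90, 6.58 and 4.56 in WT Th17 cells, with no overlap. In Th1 cells it measured 7.21, 7.97, 7.33, 8.00 and 6.59 without Malt1, against 7.26, 6.20, 6.26, 7.60 and 8.49 in WT, and these overlapped. The interaction was 2.19 ± 0.49 (adjusted p = 0.018), and it lost its call without WT Th17 replicate 3 or Malt1-/- Th1 replicate 5, and with the 72 h arrays alone (adjusted p = 0.21). The median interaction of the list was -0.48, but -0.03 without WT Th1 replicate 4 and -0.19 without Malt1-/- Th1 replicate 1.

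Il18r1, a chain of the interleukin 18 receptor, was the called member of 20 genes tested from the Th1 programme. It measured 9.71, 9.54, 9.44, 9.33 and 9.84 in Malt1-/- Th17 cells (ILMN_1218525), against 7.87, 8.21, 6.83, 9.39 and 8.96 in WT Th17 cells. Th1 values were 9.13, 10.29, 8.58, 8.73 and 7.66 in Malt1-/- cells, against 10.56, 9.97, 9.39, 10.43 and 10.38 in WT cells. The genotypes overlapped in both lineages, by 1 array in Th17 cells. The differences pointed opposite ways, 1.32 ± 0.42 in Th17 cells and -1.27 ± 0.42 in Th1 cells, neither called by itself, and the interaction was 2.59 ± 0.60 (adjusted p = 0.024). A second probe gave 1.98 ± 0.40 and was called as well (adjusted p = 0.011). The first probe lost its call without Malt1-/- Th17 replicate 5, WT Th17 replicate 1 or 3, or Malt1-/- Th1 replicate 5 (adjusted p up to 0.076). It was lost as well under median scaling (0.090), with the 72 h arrays alone (0.088) and without Malt1-/- Th17 replicates 2 and 5 (0.096).

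Ifng, which encodes interferon gamma, was not called. Its levels were 8.26, 9.40, 7.53, 6.41 and 9.14 in Malt1-/- Th17 cells, against 7.004, 8.31, 5.09, 6.63 and 5.91 in WT Th17 cells. In Th1 cells Ifng was near the top of the scale, at 15.13, 14.29, 14.45, 13.95 and 14.00 without Malt1, against 15.06, 14.43, 14.82, 13.64 and 14.53 in WT. Both pairs overlapped, and the interaction was 1.69 ± 0.67 (adjusted p = 0.32). A second probe gave 2.12 ± 0.56 (adjusted p = 0.090). Tbx21, encoding T-bet, had an interaction of -0.26 ± 0.36 (adjusted p = 0.87). In Malt1-/- Th17 cells, 2 of the 20 Th1 genes fell (Stat4 and Il12rb2, both of the interleukin 12 pathway) and Ccl3, a chemokine, rose, and in Malt1-/- Th1 cells none was called. With 2.77% of all genes called in Th1 cells, that absence is near the background.

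Genes of DNA replication and the cell cycle leaned one way without passing the test. All 22 tested had an interaction above 0, against 5773 of all 10730 genes, and none was called. The median was 0.59, and 15 of the 22 had an unadjusted p under 0.05, against 1120 of all 10730 genes. In Malt1-/- Th17 cells 10 of the 22 were higher and none lower, where 2.89% of all genes were called higher. In Malt1-/- Th1 cells none was higher and Aurkb, a mitotic kinase, was lower (-0.50, adjusted p = 0.024). Tyms, which makes thymidylate, measured 11.63, 11.74, 11.81, 11.80 and 11.69 in Malt1-/- Th17 cells, against 10.65, 11.12, 9.62, 11.19 and 10.95 in WT Th17 cells, a 2.04-fold rise with no overlap. The interaction of Tyms was 1.01 ± 0.30 (adjusted p = 0.12). Other kept probes of Tyms differed by 0.93, 0.17 and 0.37 in Th17 cells. Their interactions were 0.77, 0.33 and 0.30, none of them called. Genes of a list that move together are not independent, and over the alternatives the median stayed between 0.48 and 0.69.

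Called genes outside that list included ones that act in mitosis or DNA synthesis, chosen here with their values already known. Incenp, a partner of Aurora B at the centromere, measured 10.27, 10.33, 10.39, 10.45 and 10.19 in Malt1-/- Th17 cells, against 9.99, 9.92, 9.75, 10.08 and 9.98 in WT Th17 cells. In Th1 cells it measured 9.08, 9.58, 9.64, 9.33 and 9.27 without Malt1, against 9.65, 10.05, 10.03, 10.01 and 10.02 in WT. The genotypes were separate in both lineages, in opposite directions, with a called fall of 0.57 ± 0.12 in Th1 cells and a difference of 0.38 ± 0.12 in Th17 cells (adjusted p = 0.060). Its interaction was 0.96 ± 0.17 (adjusted p = 0.0026). Tk1, thymidine kinase, had an interaction of 1.01 ± 0.20 (adjusted p = 0.0076), although its other 3 kept probes gave -0.09, -0.05 and 0.51, none of them called. Kif2c and Kif22, kinesins of the spindle, Bub1b, a checkpoint kinase, Cdca2 and Chaf1a, which act on chromatin, and Brca2, of DNA repair, were each higher in Malt1-/- Th17 cells, with interactions between 0.67 and 1.00. None of these 6 kept its interaction call under median scaling, with the 72 h arrays alone, or without Malt1-/- Th17 replicates 2 and 5 (adjusted p from 0.065 to 0.21 in the last).

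**Figure D4:**
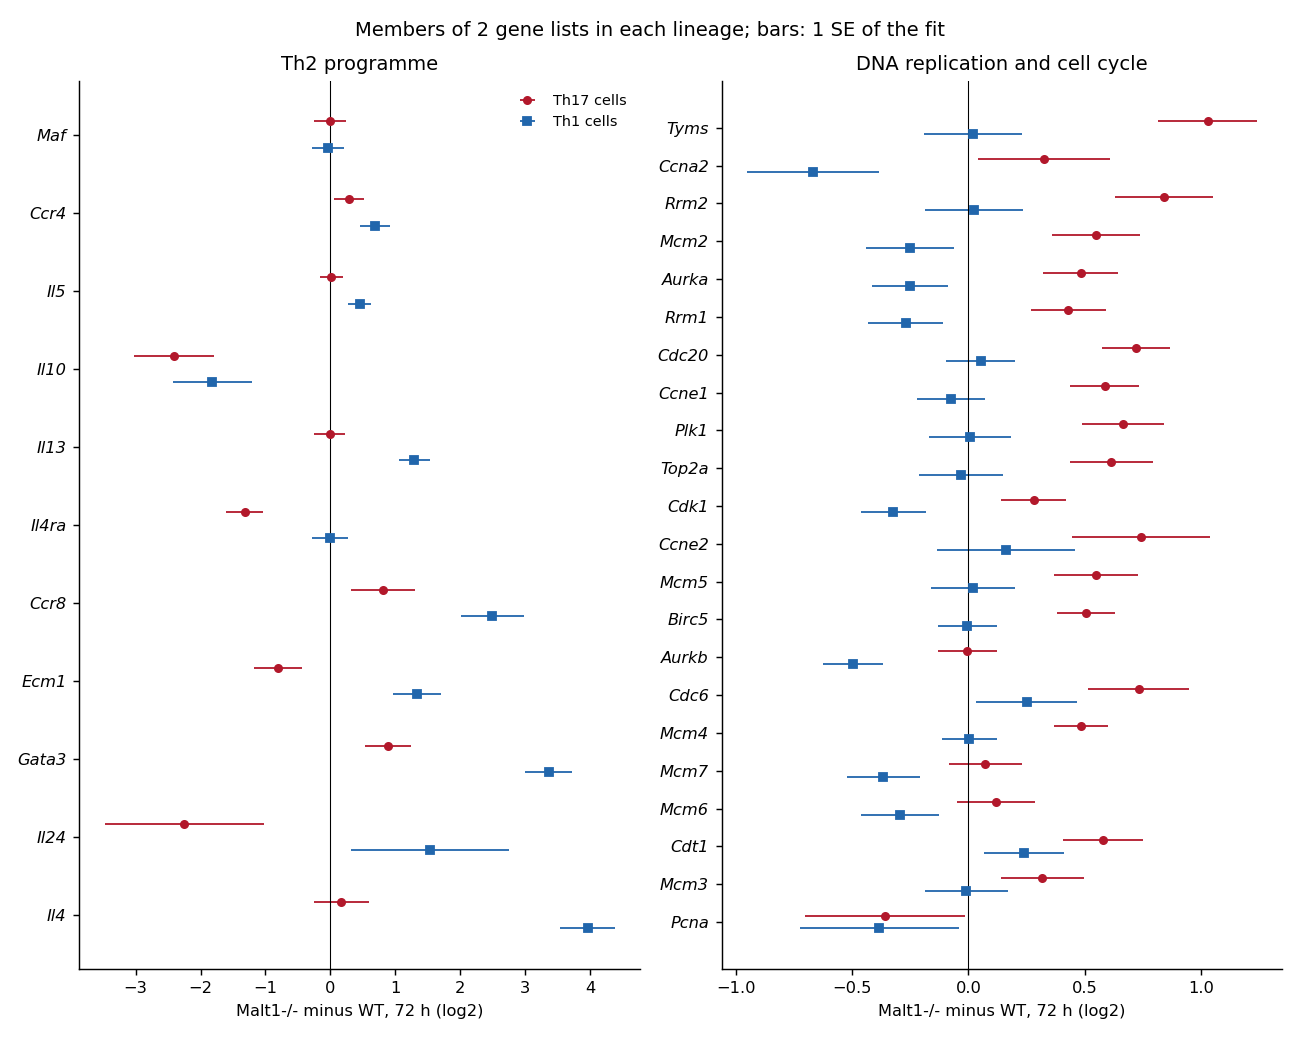
Log2 difference between Malt1-/- and WT cells at 72 h for the tested members of the Th2 list (left) and the list of DNA replication and cell cycle genes (right), in Th17 cells (red circles) and Th1 cells (blue squares), with bars of 1 SE. Il4 and Gata3 lie far to the right in Th1 cells only, and in the right panel the Th17 value exceeds the Th1 value for all 22 genes.

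Malt1 loss changed 51 genes in both lineages, which is 10.8% of those called in Th17 cells and 17.2% of those called in Th1 cells. All 51 moved in the same direction in both, 36 higher and 15 lower, and none had a called interaction. Tnf was 3.52-fold lower in Malt1-/- Th17 cells and 4.01-fold lower in Malt1-/- Th1 cells (interaction 0.19 ± 0.64). Nfkbiz, an atypical inhibitor and coactivator of NF-kappaB, fell by 0.95 ± 0.27 and by 1.47 ± 0.27 in those lineages. Nfkb2, the subunit p100/p52, was 2.02-fold higher in Th17 cells and 1.75-fold higher in Th1 cells (interaction 0.21 ± 0.30). Sphk1, which makes sphingosine 1-phosphate, was 5.16-fold and 2.62-fold higher in the Th17 and Th1 knockouts, and its interaction of 0.98 ± 0.47 was not called (adjusted p = 0.45). A second kept probe of Sphk1 showed no such rise, with differences of 0.16 and 0.00 in Th17 and Th1 cells.

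Among the pathways nearest to MALT1, none of 27 NF-kappaB genes, 16 genes of the CARMA1-BCL10-MALT1 complex and its substrates, 22 genes of T cell receptor signalling or 16 mRNAs bound by Regnase-1 or Roquin passed the test, and with 0.699% of all genes called, a count of 0 is near the background and is no result about them. Their median interactions were 0.12, 0.14, -0.28 and -0.23. Leaving out 1 array moved each of these medians by over 1.5 times, over ranges of 0.06 to 0.19, 0.03 to 0.19, -0.44 to -0.16 and -0.37 to -0.03. The last turned to 0.27 without the arrays that stood apart. All 14 glycolysis genes tested had an interaction below 0, with a median of -0.33 and none called. Without Malt1-/- Th17 replicates 2 and 5 that median was 0.06, so its direction rests on those arrays. Foxp3, the regulator of regulatory T cells, had -0.37 ± 0.21 for the probe used and positive values for its other 3 probes, none of them called.

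Lineage genes defined in WT cells at 48 h held 9 called genes. The arrays of 48 h do not enter the interaction at 72 h itself, but they share its estimate of the spread. Of the 100 genes most above Th1 in WT Th17 cells, 4 had a called negative interaction and none a positive one. Among the 100 genes most above Th17 in WT Th1 cells, 4 were negative and 1 positive. The medians were -0.08 and -0.09, against 0.03 over all genes, of which 0.699% were called.

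At 48 h the interaction was called for 15 genes, 0.14% of those tested, 8 positive (0.0746%) and 7 negative (0.0652%). Aif1l, Vcam1 and Gnpda1, a glucosamine-phosphate isomerase, were called at both times. Of the 75 genes called at 72 h, 57 had the same sign at 48 h (76.0%), against 53.1% of all genes tested. Their median absolute interaction was 1.38 at 72 h and 0.47 at 48 h, a fall that their choice at 72 h favours. Il4 (-2.02), Il17a (-2.85), Lif (-2.21), Osr2 (-2.25) and Edn1 (-2.31) pointed the same way at 48 h without a call, while Gata3 (0.06) and Csf2 (0.11) lay near 0.

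The difference between the interactions of both times was called for Upk1a and Cdkn3 (0.0186%). Upk1a, a uroplakin of the bladder lining, was detected on all 5 WT Th1 arrays of 72 h, at 5.40, 6.05, 5.46, 5.92 and 5.49, on none of the other 15, and on no array of 48 h. Its probe therefore passed the detection filter through that 1 group, so a difference was built in by the filter and the call supports nothing. Its difference between times was 1.25 (adjusted p = 0.048), and without the filter, where another probe stands for the gene, the interaction at 72 h was -0.13. Cdkn3, a phosphatase that acts on cyclin-dependent kinases, had interactions of 0.74 at 72 h and -0.65 at 48 h, a difference of 1.39 (adjusted p = 0.048). Neither call held in all alternatives, and for Il4, Gata3 and Csf2 a difference between times was not called.

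**Figure D5:**
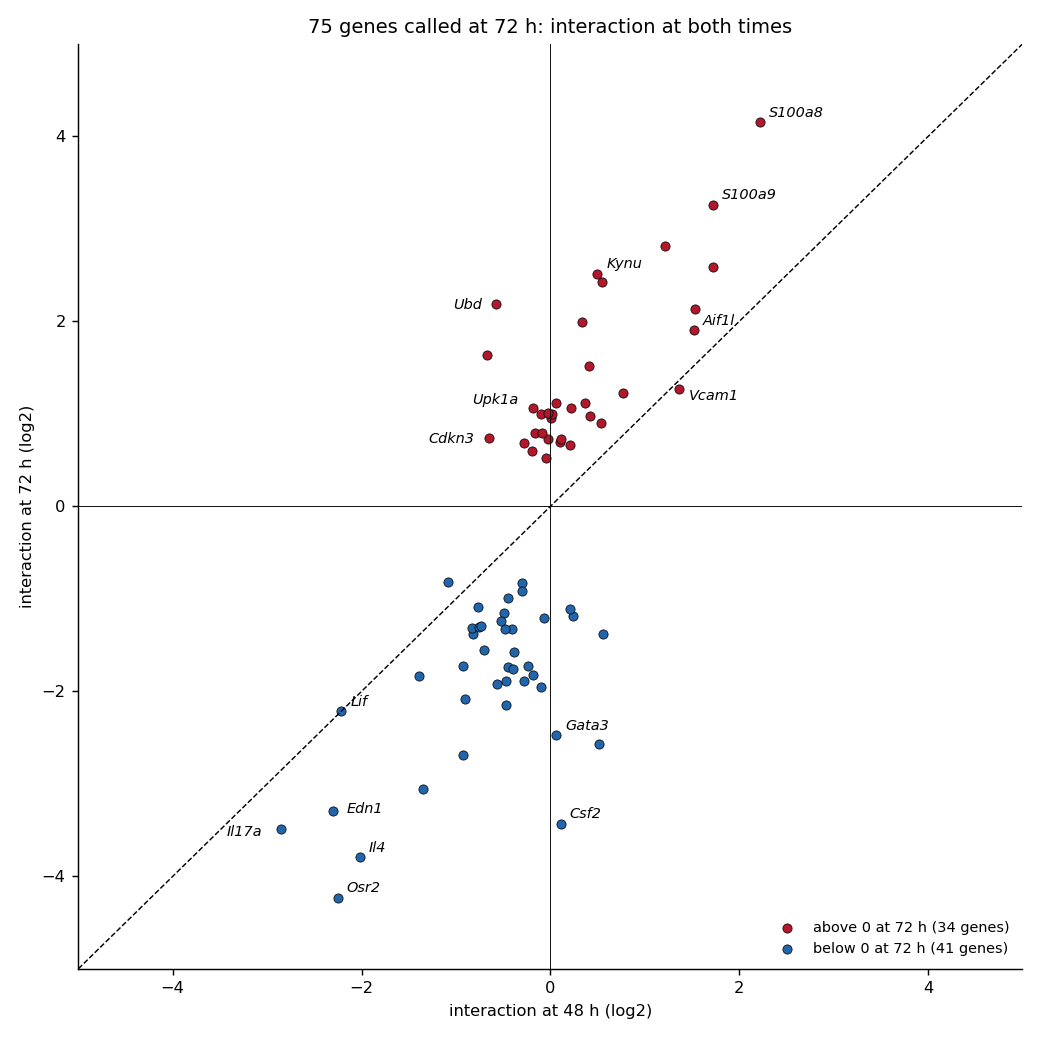
Interaction at 72 h (vertical axis) against that at 48 h (horizontal axis), in log2 units, for the 75 genes called at 72 h; the dashed line marks equality. Lif, Vcam1 and Il17a lie close to the line, whereas Gata3 and Csf2 lie near 0 at 48 h and below -2 at 72 h.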

How the data were processed

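Gene expression was measured on 40 Illumina bead arrays, 5 for each combination of genotype, lineage and time. The deposited raw table holds probe intensities that were not normalized, per the file headers, with a detection value beside each that is 1 minus the detection p-value, a fraction from 0 to 1. The table of values that the authors deposited holds log2 values; set against the raw intensities, it matched quantile normalized log2 signals centred per probe, within 0.015. The scanning software was not given in the sources used here.

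Background correction and quantile normalization used neqc of limma 3.58.1 in R 4.3.3, with an offset of 16. Of 45281 probes, 20739 were detected at p under 0.05 on at least 5 arrays, and 34885 of the 45281 have 1 gene symbol in GEO's platform annotation, 18 have several and 10378 are not listed. The brightest kept probe of each gene was used, which gave 10730 genes. A single limma fit over the 8 groups gave all contrasts, with Benjamini-Hochberg adjustment over all genes, and errors of contrasts are SEs of that fit. Genes were named if they belonged to a preset list of cytokines and regulators, were among the 15 largest interactions per direction whose genotypes did not overlap in a lineage, were among the 4 smallest p-values of a list, or led the difference between times. Further genes were named because a count or list turned on them, after their values were seen. The members and lists were chosen with earlier results of these data known.

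Tested on simulated data with 10730 genes, the interaction fit recovered 43 of 100 genes changed by a log2 value of 1 and 96 of 100 changed by 2, with 3 false calls among 142. The simulated noise was drawn separately for each gene and array. Arrays that stand apart were not simulated, so these rates may not hold for the real calls. Across groups of 72 h, arrays with the same replicate number had a median residual correlation of 0.12 over 30 pairs (from -0.36 to 0.42). Of the 20 arrays, 7 were closest to their own number. These values do not settle whether the numbers are pairs. The titles do not say what a number shares, and the numbers were not taken as pairs. No array was a copy of another. Alternatives changed the background correction, scaling, filter, probe choice, weights, block and arrays.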

Additional observations from a re-analysis of the deposited data

Results flagged for a closer look

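The Malt1 effect differed between Th17 and Th1 cells for 75 genes at 72 h and for 15 at 48 h, by the interaction test of limma. The interaction itself differed between the times for Cdkn3, by 1.39, and for Upk1a, by 1.25 (adjusted p = 0.048 each). The Upk1a probe passed the detection filter through the WT Th1 group of 72 h alone, so that call supports nothing.

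Within groups, 13 of 182 sets of 5 arrays, over 53 named genes, held 1 array far from the other 4, where chance marks about 1 in 20 sets. WT Th17 replicate 4 read 12.81 for Il17a, against 9.81 to 10.63 on the others. WT Th17 replicate 3 read 13.76 for Il17f (others 14.12 to 14.19), 4.90 for Il2 (8.58 to 9.86) and 6.15 for Bcl2l14 (4.44 to 4.69). WT Th17 replicate 2 read 6.40 for Il3 (4.52 to 5.03) and 5.40 for Fbxo15 (4.58 to 4.80). Malt1-/- Th17 replicate 1 read 10.07 for Foxp3 (9.62 to 9.68) and 5.80 for Stra6 (4.66 to 4.94). Malt1-/- Th1 replicate 4 read 11.05 for Il3 (9.34 to 9.78). WT Th1 replicate 4 read 8.98 for Il12rb2 (10.90 to 11.19) and 5.02 for Osr2 (7.16 to 7.81). WT Th1 replicate 5 read 9.32 for Il2 (11.99 to 13.06), and WT Th1 replicate 3 read 5.26 for Aif1l (4.81 to 4.93).

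Among 3569 kept probes without 1 gene symbol in the annotation used here, 5 had a called interaction at 72 h, all positive. The largest was 2.74 ± 0.31 for ILMN_1256343 (adjusted p = 3.5e-07 by limma). These probes were fitted by themselves, so the adjustment runs over the 3569 and not over all kept probes.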

How the results depend on the processing

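The 75 interaction calls at 72 h became 93 without background correction, 71 without the detection filter, 72 with a stricter one, 81 with a filter on the 72 h arrays, 76 with the mean probe, 60 with array weights and 94 in the authors' value table. Median scaling in place of quantile normalization gave 36 (30.6% positive, against 45.3% of the 75), and the 72 h arrays alone gave 27, 25 of them among the 75. Without the 11 arrays that stood apart 465 were called, and without the 2 Malt1-/- Th17 arrays of highest myeloid signal 40. The last setting was chosen after seeing the data. Leaving out 1 array gave 44 (Malt1-/- Th1 replicate 5) to 109 (Malt1-/- Th1 replicate 2), and 41 of the 75 genes were called without each array in turn.

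The 474 calls in Th17 cells became 131 under median scaling (77.1% higher, against 65.4%, with the median of all genes at 0.126), 299 without the filter, 86 on the 72 h arrays, 2004 without the arrays apart, 60 without the myeloid-high arrays, and 105 (WT Th17 replicate 3) to 846 (WT Th17 replicate 5) without 1 array. Malt1-/- Th17 replicates 2 (152) and 5 (136) and WT Th17 replicates 1 (179) and 4 (740) also moved it by over 1.5 times. The 297 calls in Th1 cells became 141 under median scaling (83.7% higher, against 66.7%), 137 on the 72 h arrays, 1504 without the arrays apart, and 138 (WT Th1 replicate 2) to 607 (WT Th1 replicate 4) without 1 array, with 196 without Malt1-/- Th1 replicate 4 and 170 without WT Th1 replicate 3. The 15 calls at 48 h became 28 with the mean probe, 274 with weights, 26 with the replicate block, 383 without the arrays apart, and 12 to 37 without 1 array of 72 h, which share the fit (37 without WT Th1 replicate 4, 25 and 23 without WT Th17 replicates 3 and 4). The 2 differences between times became 0 under median scaling, without the filter, with the stricter filter, with the replicate block and without the myeloid-high arrays, 4 in the authors' value table, 139 without the arrays apart, and 0 to 4 without 1 array, changing for 18 of the 20. Upk1a reversed to -0.13 without the filter (adjusted p = 0.96), where another probe stands for the gene. The causes of these shifts were not tested.

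Whether the replicate numbers pair the samples is not given by the labels, and they were not taken as pairs. With the replicate block, 77 interactions were called at 72 h (71 of the 75 among them), 517 genes in Th17 cells and 305 in Th1 cells. No slide or scan date could be used as a block. Signals near background limit what can be measured: 25 of the 75 genes had a 72 h group without detection.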
